A study of Chlorocebus sabaeus with 6 samples.

Results

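The mitochondrial ribosomal protein genes described here are all genes of the deposited expression table whose symbol is MRPL or MRPS followed by a digit. There are 74 of them among 18050 genes. The mitochondrial ribosome (mitoribosome) sits in the mitochondrial matrix and translates the few messenger RNAs made from mitochondrial DNA, which encode core subunits of the respiratory chain and of ATP synthase. Its ribosomal RNAs come from mitochondrial DNA, but every protein in it is encoded in the nucleus, made by cytosolic ribosomes and imported. MRPL genes encode proteins of the large subunit, which holds the peptidyl transferase centre, and most MRPS genes encode proteins of the small subunit, which holds the decoding site. MRPS30 and MRPS18A are large-subunit proteins in spite of their names, and MRPS36 is now assigned to the 2-oxoglutarate dehydrogenase complex.

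RNA-seq was done on 3 samples of COS7 cells labelled as a knockout of ATL2/3 (DKO1, DKO2 and DKO3) and 3 samples of wild-type COS7 cells (WT1, WT2 and WT3). COS7 is a fibroblast-like kidney line of the African green monkey, Chlorocebus sabaeus, immortalised with SV40. ATL2 and ATL3 encode atlastins, GTPases that fuse membranes of the endoplasmic reticulum. The number of knockout clones is not given in the labels, nor whether samples sharing a genotype were cultured apart. The spread behind each p-value is that among these 3 and 3 libraries and could be technical. The authors deposited an estimated read count and an FPKM value (fragments per kilobase of transcript, scaled to the mapped fragments of the library) for each gene and sample.

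Each library summed to between 14197344 and 15693049 estimated counts, and a mitochondrial ribosomal protein gene had between 122 and 4661 counts in a library. ATL2 had 7.38, 6.65 and 3.78 FPKM in DKO1, DKO2 and DKO3, against 30.54, 29.17 and 32.16 FPKM in WT1, WT2 and WT3. ATL3 had 5.22, 5.93 and 3.5 FPKM in the DKO samples, against 37.33, 34.73 and 35.36 FPKM in the WT samples. Both genes were lower in every DKO sample, in the direction the label gives. DKO3 stood apart from the other DKO libraries. The chi-square per gene of its counts was 75.16 against DKO1 and 80.04 against DKO2, while it was 1.53 between DKO1 and DKO2 and at most 3.51 between any pair of WT libraries. DKO3 carries the same label as the other DKO samples, so the main counts below are given with and without it. As a check of the labelled cells, the fibroblast markers VIM and FN1 were detected in every library, THY1 was at 0 in all 6, and COL1A2 and COL3A1 were near 0. FN1 had 207 ± 21.8 FPKM in DKO samples and 1838 ± 57.1 FPKM in WT samples (SD, n = 3 each), and the summed level of the 8 fibroblast markers ranged from 1511 to 1562 FPKM in DKO against 3360.25 to 3451 FPKM in WT. The summed kidney markers ranged from 37.3 to 43.2 FPKM in DKO against 130 to 136 FPKM in WT, and the summed epithelial markers from 529 to 690 FPKM in DKO against 708 to 801 FPKM in WT. Those 3 lists did not overlap between the groups. The summed blood and endothelial markers, nearly all CD68, ranged from 13.6 to 15.3 FPKM in DKO against 14.2 to 16.1 FPKM in WT, with PTPRC near 0. These marker levels were not adjusted for, and their part in the results below was not tested. In such bulk samples, fewer cells of a type and less RNA per cell cannot be told apart.

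All 74 genes passed the filter on low counts, and most moved little between DKO and WT samples. At an adjusted p under 0.05 in edgeR's quasi-likelihood test, 11 were higher in DKO, 5 were lower and 58 did not pass. These 16 genes are 21.6% of the 74, whereas 45.5% of the 13094 genes tested were called, 23.3% as higher and 22.2% as lower in DKO. The higher genes included MRPL20, MRPL36, MRPL48 and MRPS27, and the lower genes were MRPS17, MRPS30, MRPS14, MRPL33 and MRPS6. The median log2 fold change of DKO over WT was 0.10 over the 74 genes and -0.01 over all genes tested, and that of the 74 lay between -0.01 and 0.12 over the other fits and scalings tried. Single genes ran from -0.93 for MRPS17 to 0.92 for MRPL20. None of the 74 reached a change of 1 on the log2 scale, which 22.5% of all genes tested did, and 86.5% of them stayed within 0.5, against 52.7% of all genes tested. The DKO samples were all above the WT samples for 20 genes (27.0%) and all below them for 18 (24.3%), beside 29.1% and 34.1% of all genes tested, and the groups overlapped for 36.

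The number called depended on which libraries were in the fit. Without DKO3, 25 of the 74 were called higher and 22 lower, which is 33.8% and 29.7%. The calls over all genes tested in that fit then covered 74.6%, with 36.0% higher and 38.6% lower in DKO. All 16 genes called with DKO3 were called in the same direction without it, and 31 more were added. Of the 31, 4 had the opposite sign in the fit with all libraries (MRPL47, MRPL52, MRPS11 and MRPS16). The median log2 fold change of the 74 was -0.01 without DKO3. The fits without 1 of the other libraries called fewer, with 7 higher and 4 lower without DKO1, 8 and 3 without DKO2, 3 and 2 without WT1, and 4 and 2 without WT2 as well as without WT3. Calls over all genes tested fell too, from 5959 of 13094 to 5328 of 13291 without DKO1 and 5536 of 13300 without DKO2. They were 4275 of 13269 without WT1, 4379 of 13255 without WT2 and 4266 of 13270 without WT3. The 5 of the 74 genes called in every fit without 1 library were MRPL20, MRPL36, MRPS17, MRPS27 and MRPS30.

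**Figure D1:**
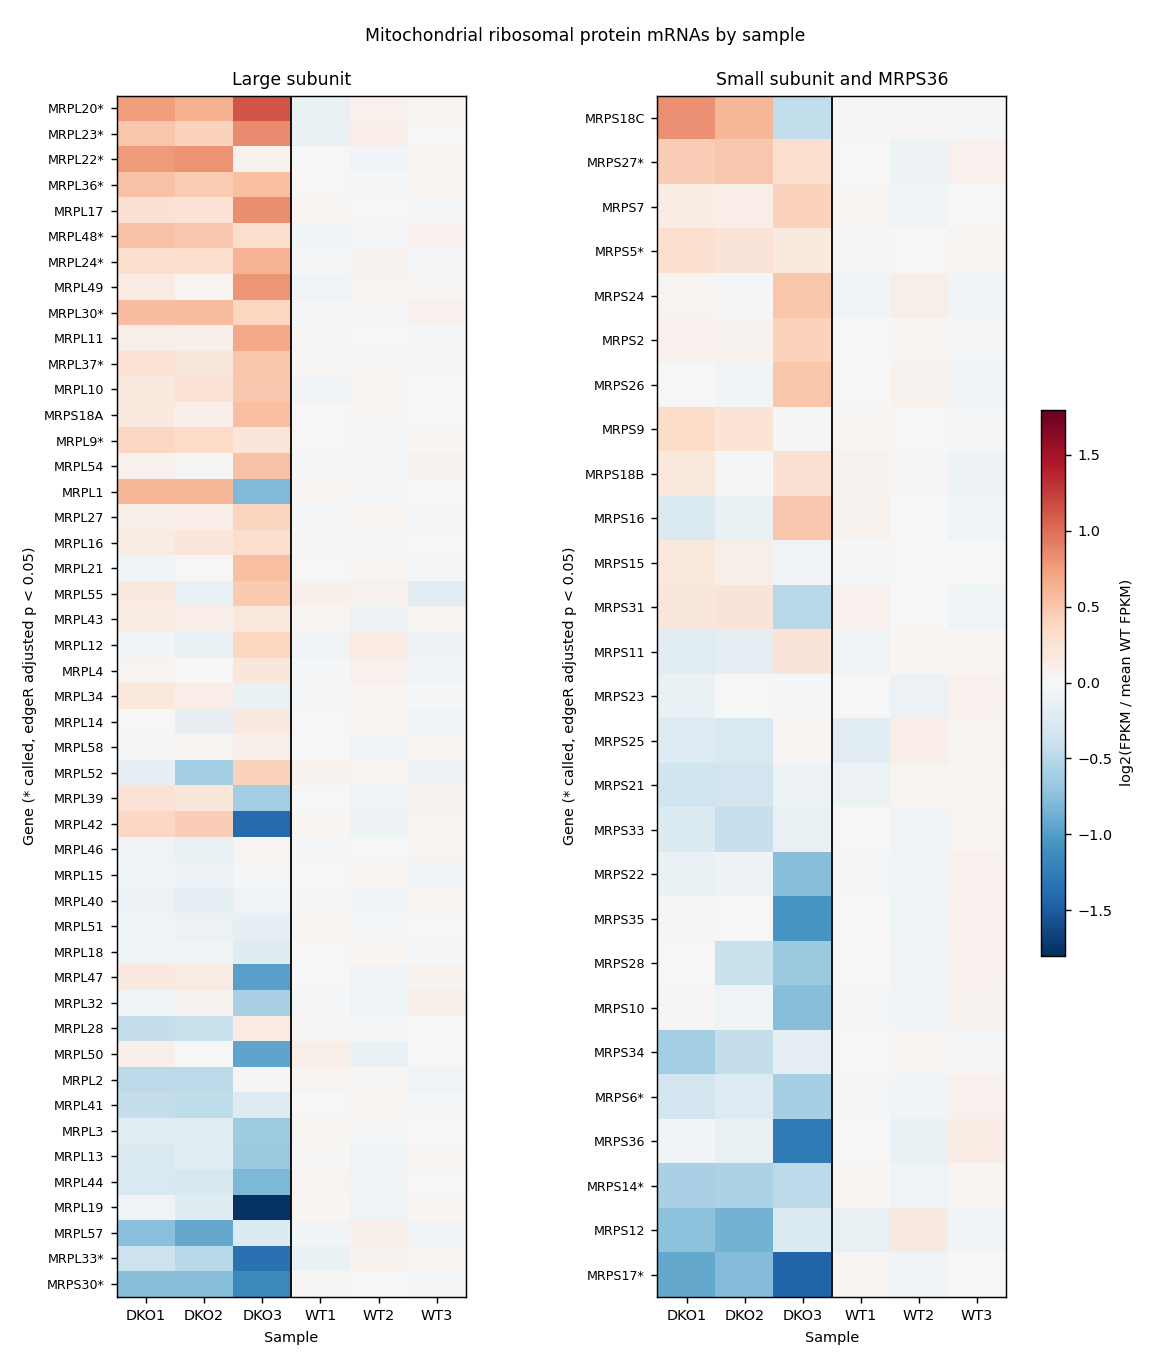
Level of each of the 74 mitochondrial ribosomal protein genes in DKO1 to DKO3 and WT1 to WT3, as log2 of FPKM over the gene's mean WT FPKM (red higher, blue lower), with genes in rows, samples in columns and an asterisk on genes called by edgeR. The WT columns are pale, and the strongest colours are in DKO3, red for MRPL20 and blue for MRPL19, MRPS17 and MRPL42.

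Among the lower genes, MRPS17, a small-subunit protein with a bacterial counterpart that binds the ribosomal RNA, showed the largest decrease. It had 71.52, 78.60 and 49.85 FPKM in DKO1, DKO2 and DKO3, against 140.20, 130.12 and 135.95 FPKM in WT1, WT2 and WT3. Every DKO sample was well below the lowest WT sample, and DKO3 was the lowest of all. This is a log2 fold change of -0.93 (SE 0.13, adjusted p = 0.0010 by edgeR). MRPS30, a large-subunit protein specific to mitochondrial ribosomes, had 20.80, 20.90 and 15.82 FPKM in the DKO samples, against 35.93, 35.40 and 35.02 FPKM in the WT samples. All DKO values again lay below all WT values, with little spread among the WT samples. Its log2 fold change was -0.85 (SE 0.12, adjusted p = 0.0013 by edgeR).

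The other 3 lower genes changed less and lost the call when single libraries were left out. MRPS14, which lies near the decoding site in the head of the small subunit, had 60.17, 61.25 and 65.20 FPKM in DKO against 92.44, 86.19 and 92.75 FPKM in WT. The groups were far apart and DKO3 was close to the other DKO samples. MRPS14 had a log2 fold change of -0.47 (SE 0.13, adjusted p = 0.024 by edgeR), and the adjusted p lay between 0.061 and 0.096 in the fits without DKO1, DKO2, WT1, WT2 or WT3. MRPL33, one of the smallest large-subunit proteins, had 87.46, 80.75 and 45.24 FPKM in DKO against 105.60, 119.20 and 118.43 FPKM in WT. DKO3 lay far below DKO1 and DKO2, which were themselves below every WT sample. The log2 fold change was -0.65 (SE 0.20, adjusted p = 0.034 by edgeR), with an adjusted p between 0.053 and 0.11 without DKO2, WT1, WT2 or WT3, and the call was lost with limma on log2(FPKM + 1). MRPS6, a small-subunit protein with a bacterial counterpart, had 92.75, 99.76 and 77.21 FPKM in DKO against 114.23, 112.69 and 123.85 FPKM in WT. All DKO samples were lower by a modest step, with a log2 fold change of -0.33 (SE 0.10, adjusted p = 0.036 by edgeR). The adjusted p was between 0.090 and 0.15 without DKO1, WT1, WT2 or WT3.

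Among the higher genes, MRPL20 rose most. It encodes a large-subunit protein whose bacterial counterpart is needed early in assembly of that subunit. It had 128.63, 119.45 and 167.06 FPKM in DKO1, DKO2 and DKO3, against 70.00, 80.52 and 79.16 FPKM in WT1, WT2 and WT3. All DKO samples were above all WT samples and DKO3 was the highest. The log2 fold change was 0.92 (SE 0.18, adjusted p = 0.0060 by edgeR). MRPL36, a very small protein of the large subunit, had 165.02, 157.59 and 166.35 FPKM in DKO against 113.97, 113.34 and 117.15 FPKM in WT. The values within each group were tight and the groups did not overlap, and the log2 fold change was 0.57 (SE 0.11, adjusted p = 0.0060 by edgeR).

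MRPL48, a large-subunit protein specific to mitochondria, had 47.62, 46.53 and 41.39 FPKM in DKO against 32.06, 32.18 and 35.05 FPKM in WT. DKO3 was the lowest DKO sample and still above every WT sample. Its log2 fold change was 0.49 (SE 0.10, adjusted p = 0.0065 by edgeR), and the adjusted p was 0.051 without WT1. MRPS27, a pentatricopeptide repeat protein of the small subunit, had 58.75, 60.38 and 53.50 FPKM in DKO against 43.33, 40.66 and 45.71 FPKM in WT. The groups did not overlap and the log2 fold change was 0.45 (SE 0.09, adjusted p = 0.0066 by edgeR).

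MRPL22, whose bacterial counterpart lines the exit tunnel of the large subunit, had 147.78, 152.25 and 90.74 FPKM in DKO against 87.55, 83.90 and 90.03 FPKM in WT. DKO1 and DKO2 were far above the WT samples, while DKO3 was level with the highest WT sample. The log2 fold change was 0.62 (SE 0.16, adjusted p = 0.016 by edgeR). The adjusted p was between 0.055 and 0.074 in the fits without DKO1, DKO2, WT1, WT2 or WT3, and the call was also lost with limma on log2(FPKM + 1). MRPL23, a large-subunit protein with a bacterial counterpart near the tunnel exit, had 159.46, 149.97 and 203.19 FPKM in DKO against 103.69, 122.82 and 112.43 FPKM in WT. All DKO samples were higher and DKO3 the highest. MRPL23 had a log2 fold change of 0.68 (SE 0.20, adjusted p = 0.027 by edgeR), with an adjusted p between 0.059 and 0.10 without any 1 of the WT libraries.

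The other 5 higher genes were MRPL9, MRPL24, MRPL30, MRPL37 and MRPS5, with log2 fold changes between 0.28 and 0.49 and adjusted p between 0.016 and 0.048 in edgeR. MRPL24 had 86.36, 86.75 and 107.63 FPKM in DKO against 68.01, 72.67 and 68.05 FPKM in WT. MRPL37 had 181.86, 174.98 and 214.17 FPKM in DKO against 153.11, 153.63 and 148.00 FPKM in WT. In both genes DKO3 was the highest sample. MRPL30 had 66.83, 67.78 and 59.23 FPKM in DKO against 44.29, 44.23 and 48.03 FPKM in WT, and its lowest DKO value was in DKO3. MRPL9 had 99.58, 97.48 and 89.89 FPKM in DKO against 76.58, 76.15 and 79.09 FPKM in WT. MRPS5, whose bacterial counterpart helps to keep decoding accurate, had 120.65, 116.65 and 111.56 FPKM in DKO against 96.75, 98.68 and 102.02 FPKM in WT. In these genes too DKO3 was the lowest DKO sample. The DKO samples lay above the WT samples for all 5 genes. Each lost its call without WT1, WT2 or WT3. MRPL9 and MRPL37 also lost it without DKO1, and MRPL30 and MRPS5 without DKO1 or DKO2. Over these fits the adjusted p ran from 0.055 to 0.091 for MRPL9, 0.093 to 0.13 for MRPL24, 0.10 to 0.16 for MRPL30, 0.062 to 0.15 for MRPL37 and 0.069 to 0.16 for MRPS5. MRPL30, MRPL37 and MRPS5 lost it in DESeq2 too. With 3 samples against 3, the exact two-sided permutation test on a single gene cannot go below 0.1, and each of the 16 called genes was at that value. Any gene whose groups do not overlap gets 0.1, also one not called such as MRPL10, so the value adds nothing to the calls.

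**Figure D2:**
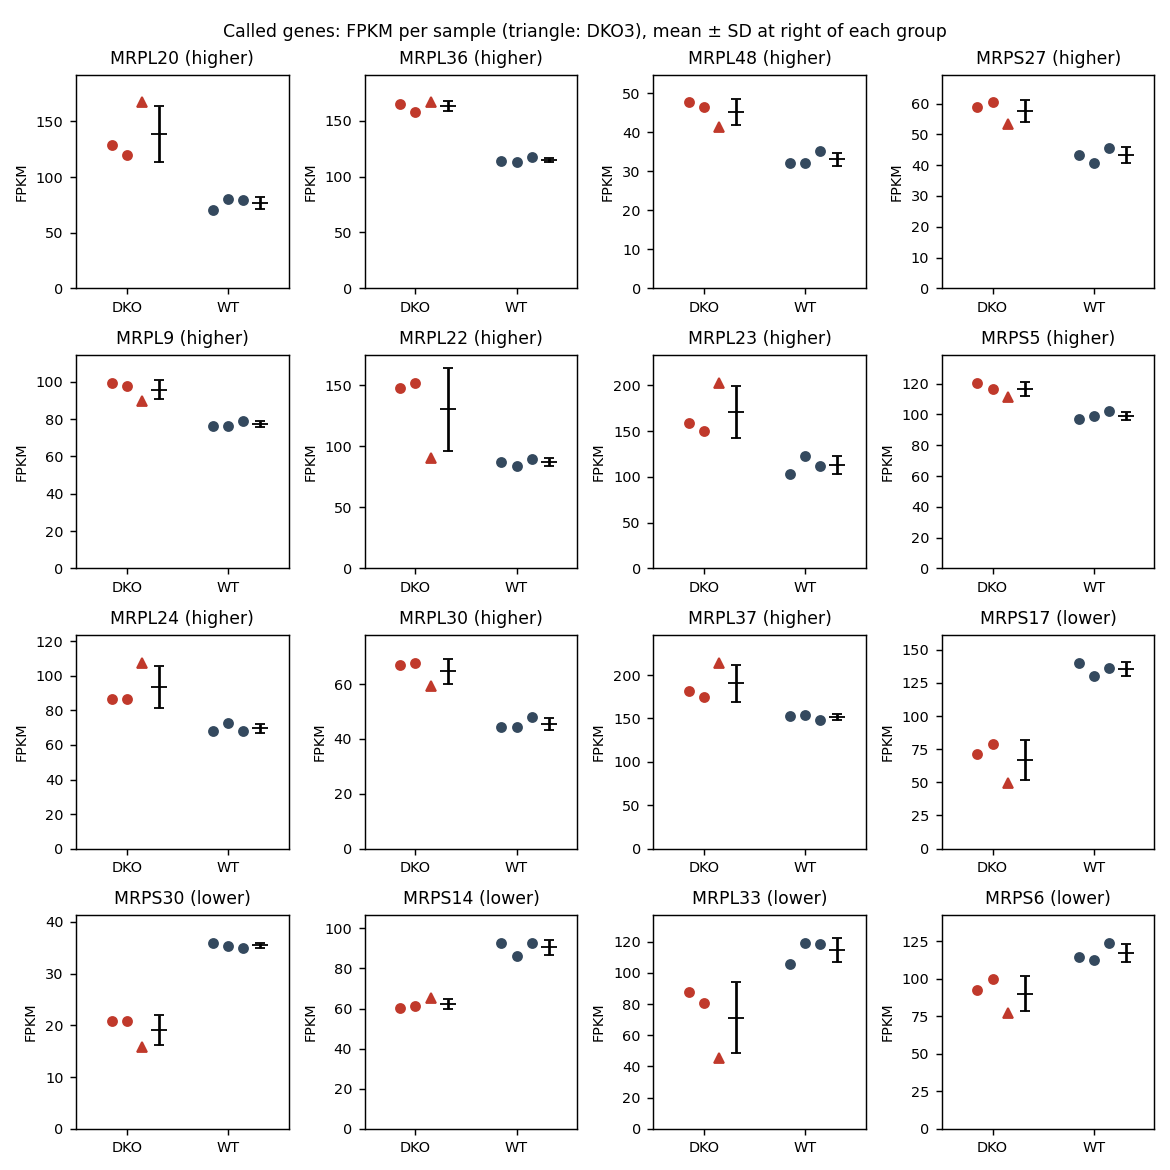
FPKM in each DKO and WT sample for the 16 mitochondrial ribosomal protein genes called by edgeR, with DKO left of WT in each panel, a point for each sample, a triangle for DKO3, and the mean with its SD at the right of each group. The groups do not overlap in any of the 16, and for MRPL22 the DKO3 value of 90.74 FPKM is next to the highest WT value of 90.03 FPKM.

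The 11 higher genes were mostly of the large subunit, which also holds most of the 74. Of 47 large-subunit genes, 9 were higher and 2 lower in DKO, and of 26 small-subunit genes, 2 were higher and 3 lower. These are 19.1% higher and 4.26% lower for the large subunit and 7.69% higher and 11.5% lower for the small subunit, beside 23.3% higher and 22.2% lower over all genes tested. The DKO samples were all above the WT samples for 16 large-subunit genes (34.0%) and all below them for 10 (21.3%). For the small subunit these counts were 4 (15.4%) and 8 (30.8%), and over all genes tested the shares were 29.1% and 34.1%. The median log2 fold change was 0.12 for the large subunit and 0.02 for the small subunit, and without DKO3 it was 0.04 for the large subunit and -0.07 for the small subunit. Among large-subunit proteins with a bacterial counterpart, 7 of 29 were higher and 1 lower, with a median log2 fold change of 0.26 (0.10 without DKO3). Among those specific to mitochondria, 2 of 18 were higher and 1 lower, with a median of 0.04 (0.02 without DKO3). In the small subunit, 1 of 16 with a bacterial counterpart was higher and 3 lower (median 0.09, and -0.13 without DKO3), and 1 of 10 specific to mitochondria was higher and none lower (median -0.05 with and without DKO3). Without DKO3, 18 large-subunit genes were higher and 11 lower, and 7 small-subunit genes were higher and 11 lower, beside 36.0% higher and 38.6% lower over all genes tested in that fit. Leaving out DKO1, DKO2, WT1, WT2 or WT3 left from 2 to 7 higher and 1 or 2 lower in the large subunit, and 1 higher and 1 or 2 lower in the small subunit. Over all genes tested, those fits called from 2105 to 2822 higher and from 2146 to 2714 lower, of 13255 to 13300. Whether the subunits differ was not tested.

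As a share of all FPKM in a library, the large-subunit genes made up 0.661%, 0.652% and 0.686% in DKO1, DKO2 and DKO3, against 0.652%, 0.656% and 0.653% in WT1, WT2 and WT3. The DKO and WT samples overlapped in this share. The small-subunit genes made up 0.358%, 0.354% and 0.350% in DKO, against 0.395%, 0.397% and 0.403% in WT, so that every DKO sample was below every WT sample. The summed large-subunit FPKM was 1.85, 1.84 and 1.96 times the summed small-subunit FPKM in DKO, against 1.65, 1.65 and 1.62 times in WT. This ratio was higher in all 3 DKO samples, DKO3 most. Most of its mean difference of 0.241 went with the called genes. Without them the ratio was 1.641 ± 0.046 in DKO and 1.577 ± 0.023 in WT (SD, n = 3 each). Every DKO sample was still above every WT sample, with DKO1 and WT1 nearly level. Leaving out only MRPS17 and MRPL20 gave a mean difference of 0.169. The mean small-subunit share without MRPS17 was 0.343% in DKO and 0.375% in WT. The ratio of the median large-subunit FPKM to the median small-subunit FPKM was 1.10, 1.05 and 1.14 in DKO against 1.05, 1.04 and 1.09 in WT, and there the groups overlapped.

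**Figure D3:**
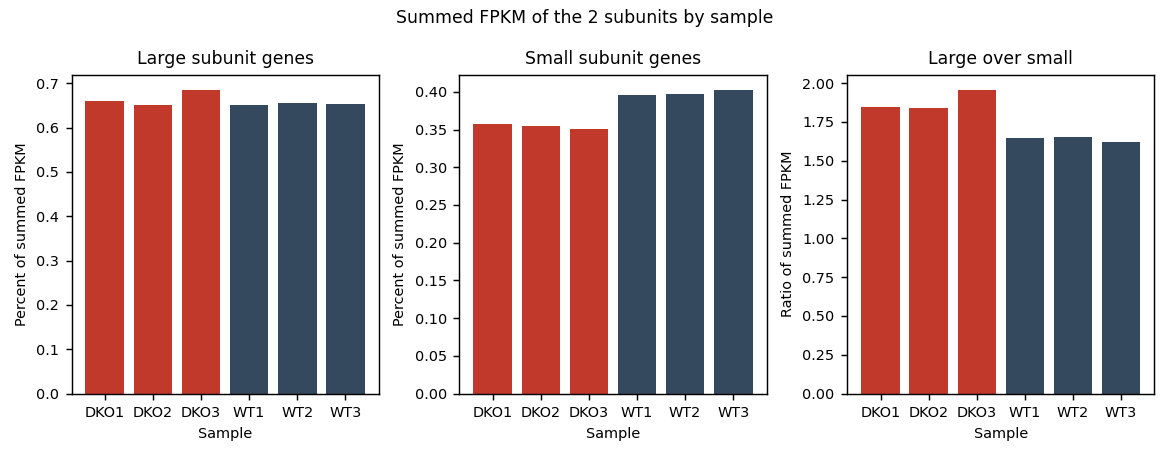
Summed FPKM of the large-subunit and small-subunit genes as a percentage of all FPKM in a library, and the ratio of the large-subunit sum to the small-subunit sum, for each DKO sample (left) and WT sample (right). The small-subunit share is 0.350% to 0.358% in DKO against 0.395% to 0.403% in WT, the large-subunit share overlaps between the groups, and the ratio is 1.84 to 1.96 in DKO against 1.62 to 1.65 in WT.

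The 74 genes together made up 1.02%, 1.01% and 1.04% of all FPKM in DKO, against 1.05%, 1.06% and 1.06% in WT. Leaving the 100 most abundant genes out of the total gave 1.49%, 1.47% and 1.58% in DKO and 1.52%, 1.53% and 1.53% in WT, where the groups overlapped. The median gene of the 74 had 75.7, 77.9 and 72.9 FPKM in DKO and 77.9, 77.8 and 79.1 FPKM in WT, well above the median of all genes tested, which was between 8.98 and 10.8 FPKM in the 6 libraries. By mean FPKM over the 6 libraries, the most abundant was MRPS15, a small-subunit protein with a bacterial counterpart, with 323.93, 306.45 and 272.62 FPKM in DKO against 280.59, 285.05 and 286.14 FPKM in WT. The least abundant by that mean was MRPS25, with 14.63, 14.14 and 17.60 FPKM in DKO against 15.01, 18.68 and 17.78 FPKM in WT. Both overlapped between the groups. In DKO3 alone the highest was MRPL11 and the lowest MRPS36, at 10.41 FPKM. MRPL11, whose bacterial counterpart is part of the stalk base where translation factors bind, followed near the top with 197.37, 195.32 and 291.66 FPKM in DKO against 184.97, 183.06 and 179.94 FPKM in WT. MRPS21 had 152.54, 155.54 and 182.10 FPKM in DKO against 183.84, 201.61 and 201.33 FPKM in WT, and near the bottom MRPL44 had 21.62, 21.34 and 14.82 FPKM in DKO against 27.00, 24.84 and 26.23 FPKM in WT. DKO1 and DKO2 were close to each other in all 3 genes, the DKO samples lay above WT for MRPL11 and below WT for MRPS21 and MRPL44, and none of the 3 passed the test. The order of the genes by mean FPKM was largely shared between the groups (Spearman's rho 0.902 across the 74 genes, DKO and WT means, as a description, since these genes share libraries).

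The spread among the DKO samples was far wider than among the WT samples, while DKO1 and DKO2 were close to each other. The coefficient of variation of FPKM had a median over the 74 genes of 16.7% in DKO and 3.95% in WT, and was larger in DKO for 71 genes. DKO1 and DKO2 differed by a median of 3.94%. The standard deviation of log2 FPKM across the 74 genes within a library was 0.844, 0.866 and 1.14 in DKO1, DKO2 and DKO3, against 0.809, 0.831 and 0.808 in the WT libraries. The levels of these genes were thus spread more widely in DKO3 than in any other library. These measures of spread are not given here for all genes tested, and DKO3 stood apart over the whole library too. On the log2(FPKM + 0.1) scale, DKO3 was at least 0.5 above the mean of DKO1 and DKO2 for 11 genes (14.9%), at least 0.5 below it for 17 (23.0%) and within 0.5 for 46. Over all genes tested, 9.52% were at least 0.5 above and 26.0% at least 0.5 below.

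In the 6 genes with the largest gaps, DKO3 was the lower side. They are the large-subunit genes MRPL42, MRPL19, MRPL1 and MRPL47, the small-subunit gene MRPS18C and MRPS36. MRPL42 had 38.51, 40.46 and 11.22 FPKM in DKO1, DKO2 and DKO3, against 30.47, 27.79 and 30.83 FPKM in WT. MRPL19 had 57.50, 51.91 and 17.55 FPKM in DKO against 61.67, 57.26 and 62.05 FPKM in WT. MRPL1, whose bacterial counterpart forms the mobile stalk beside the exit site for transfer RNA, had 53.82, 53.83 and 20.59 FPKM in DKO against 36.53, 35 and 35.31 FPKM in WT. In all 3 genes DKO3 was below every other library, at 0.284, 0.321 and 0.383 of the mean of DKO1 and DKO2. DKO1 and DKO2 were above the WT samples for MRPL42 and MRPL1 and not for MRPL19. MRPS36 had 24.33, 22.84 and 10.41 FPKM in DKO against 24.95, 22.86 and 27.41 FPKM in WT, and MRPL47 had 94.53, 93.26 and 42.56 FPKM in DKO against 83.42, 80.91 and 87.37 FPKM in WT. At the other end, MRPL52 had 36.98, 26.48 and 54.38 FPKM in DKO against 42.99, 41.78 and 38.10 FPKM in WT, with DKO3 the highest library and the other DKO samples the lowest or among the lowest.

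For 14 genes (18.9%) DKO3 lay on one side of all WT samples and both DKO1 and DKO2 on the other, beside 13.1% of all genes tested. In 9 of them DKO1 and DKO2 were above WT and DKO3 below: MRPL1, MRPL34, MRPL39, MRPL42, MRPL47, MRPS15, MRPS18C, MRPS31 and MRPS9. In MRPL28, MRPL46, MRPL52, MRPS11 and MRPS16 it was the reverse. None of the 14 was called with all 6 libraries. MRPL1 had a log2 fold change of 0.60 without DKO3 (adjusted p = 8.0e-12 by edgeR), and MRPL42 one of 0.41 (adjusted p = 2.2e-09) against 0.04 with it (adjusted p = 0.95). MRPS9, a small-subunit protein with a bacterial counterpart, had 87.28, 82.40 and 68.31 FPKM in DKO against 71.11, 69.68 and 68.41 FPKM in WT, so that DKO3 was just below the lowest WT sample, and its log2 fold change was 0.28 without DKO3 (adjusted p = 6.6e-06 by edgeR).

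**Figure D4:**
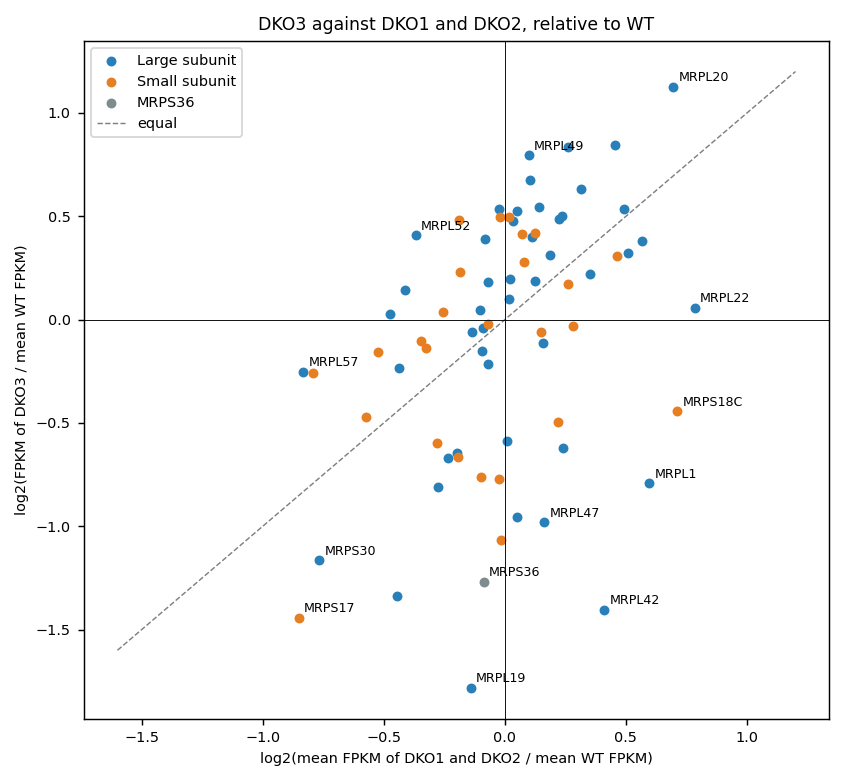
For each of the 74 genes, log2 of DKO3 FPKM over mean WT FPKM on the vertical axis against log2 of the mean DKO1 and DKO2 FPKM over mean WT FPKM on the horizontal axis, coloured by subunit, with a dashed line where both are equal. Genes at the lower right, such as MRPL1, MRPL42 and MRPS18C, are above WT in DKO1 and DKO2 and below it in DKO3, and the vertical distance from the line is widest for MRPL42.

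The 4 genes lower in DKO with the smallest adjusted p among those that passed the edgeR test without DKO3 but not with it were MRPS12, MRPS34, MRPL57 and MRPL28. MRPS12, a decoding-site protein of the small subunit, had 40.82, 37.93 and 57.08 FPKM in DKO against 62.32, 76.63 and 65.88 FPKM in WT. MRPS34, a small-subunit protein specific to mitochondria, had 72.20, 82.12 and 99.53 FPKM in DKO against 110.25, 113.41 and 109.32 FPKM in WT. In both, DKO3 was below the WT samples and nearer to them than the other DKO samples were. MRPL57 had 31.07, 27.48 and 43.80 FPKM in DKO against 50.26, 55.68 and 50.59 FPKM in WT. MRPL28 had 111.45, 113.75 and 165.68 FPKM in DKO against 152.48, 148.47 and 149.01 FPKM in WT, with DKO3 above the WT samples, whereas for MRPL57 it was below them. Without DKO3 the log2 fold changes of MRPS12, MRPS34, MRPL57 and MRPL28 were -0.80, -0.53, -0.85 and -0.42 (largest adjusted p = 2.9e-10 by edgeR). The counts of MRPS12, MRPL24, MRPS10 and MRPS16 were not all whole numbers, so part of their reads appear to have been shared out among features in the authors' counting.

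MRPS18A, MRPS18B and MRPS18C are 3 paralogs related to a single bacterial protein, with MRPS18B and MRPS18C in the small subunit and MRPS18A in the large subunit. MRPS18C had 101.90, 87.05 and 42.41 FPKM in DKO against 58.25, 58.54 and 56.22 FPKM in WT. MRPS18A had 123.12, 116.16 and 158.32 FPKM in DKO against 107.98, 110.07 and 107.84 FPKM in WT, and MRPS18B had 74.58, 63.93 and 79.63 FPKM in DKO against 68.33, 66.85 and 61.81 FPKM in WT. DKO3 was thus the lowest library for MRPS18C and the highest for MRPS18A and MRPS18B. None passed the test with all libraries, and the log2 fold change was 0.46 for MRPS18C (SE 0.24, adjusted p = 0.17), 0.36 for MRPS18A (SE 0.18, adjusted p = 0.14) and 0.22 for MRPS18B (SE 0.15, adjusted p = 0.29). Without DKO3, MRPS18C was higher in DKO by 0.69 on the log2 scale (adjusted p = 5.9e-11 by edgeR) and MRPS18A by 0.13 (adjusted p = 0.029), while MRPS18B did not pass (0.07, adjusted p = 0.38). Reads shared between such copies could be split in the authors' counting, though the counts of these 3 genes were whole numbers.

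The transcripts of the 74 genes are short. The length implied by the deposited count and FPKM ranged from 349 to 3073 bases with a median of 931 bases, against a median of 2560 bases over all genes tested. Across the 74 genes, the gap of DKO3 to DKO1 and DKO2 went down with length (Pearson's r -0.33 and Spearman's rho -0.32 with log2 length, against -0.16 and -0.20 across all 13094 genes tested, as descriptions of 3 shared libraries). Of the 37 longer genes, 10 were at least 0.5 lower in DKO3 and 3 at least 0.5 higher, with a median gap of -0.13. Of the 37 shorter genes, 7 were lower and 8 higher by that step, with a median gap of 0.24. Whether length had a part in the differences of DKO3 was not tested beyond these values.

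Other genes of mitochondrial translation, of mitochondrial DNA expression and copying, and regulators of mitochondrial biogenesis were followed through 6 lists. Of their 90 genes, 88 passed the filter. In these, 12 genes were higher in DKO, 8 were lower and 68 did not pass, which is 22.7% called, beside 21.6% of the mitochondrial ribosomal protein genes and 45.5% of all genes tested. Without DKO3 the counts were 24 higher and 32 lower, which is 63.6% called beside 74.6% of all genes tested, and in the fits without 1 other library (DKO1, DKO2, WT1, WT2 or WT3) they ran from 6 to 12 higher and from 4 to 6 lower. Over all genes tested, from 4266 to 5536 were called in those latter fits, of 13255 to 13300. The median log2 fold change over the 88 was -0.05, and -0.06 without DKO3. The counts by list below read against 23.3% of all genes tested as higher and 22.2% as lower, or 36.0% and 38.6% without DKO3.

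Among 15 genes listed as mitochondrial translation factors, 3 were higher and 1 lower, and without DKO3 4 were higher and 5 lower. MRRF, which splits the ribosome after termination, had 84.5 ± 3.66 FPKM in DKO and 44.3 ± 0.575 FPKM in WT (SD, n = 3 each), with a log2 fold change of 0.97 (SE 0.09, adjusted p = 0.00020 by edgeR). TSFM, the exchange factor of the elongation factor TUFM, had 84.5 ± 2.07 FPKM in DKO and 59.2 ± 1.42 FPKM in WT, with a log2 fold change of 0.58 (SE 0.11, adjusted p = 0.0054 by edgeR). For both genes, the difference between the groups was many times the SD within either. GFM2, which acts with MRRF in recycling, was also higher with a log2 fold change of 0.35 (adjusted p = 0.038 by edgeR), a call lost without DKO1, DKO2, WT1, WT2 or WT3 (adjusted p between 0.083 and 0.16). MTRF1L, a release factor, was lower, with 6.0 ± 2.01 FPKM in DKO and 12.3 ± 0.361 FPKM in WT and a log2 fold change of -1.01 (SE 0.23, adjusted p = 0.011 by edgeR).

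Of 20 genes in the list of mitochondrial aminoacyl-tRNA synthetases, 4 were higher and 3 lower, and without DKO3 7 were higher and 9 lower. GATB, GATC and QRSL1 in this list are subunits of an amidotransferase and not synthetases, and GATC was 1 of the 4 higher. IARS2, which charges the isoleucine tRNA, had 17.8 ± 3.14 FPKM in DKO and 41.9 ± 1.08 FPKM in WT, with a log2 fold change of -1.20 (SE 0.13, adjusted p = 0.00038 by edgeR). HARS2, the histidine enzyme, had 32.3 ± 2.41 FPKM in DKO and 17.5 ± 0.867 FPKM in WT, a log2 fold change of 0.93 (SE 0.12, adjusted p = 0.00099 by edgeR), and EARS2, the glutamate enzyme, was higher by 0.53 (SE 0.11, adjusted p = 0.0071). The DKO and WT means of IARS2 and HARS2 were many SDs apart, in opposite directions. The counts of HARS2 were not all whole numbers, so some of its reads may be shared with another feature.

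Of 26 assembly factors tested, 3 were higher and none lower, whereas without DKO3 8 were higher and 5 lower. The median log2 fold change of this list was 0.15 with DKO3 and -0.01 without it. MALSU1, which keeps the small subunit off the immature large subunit, had a log2 fold change of 0.50 (adjusted p = 0.0097 by edgeR). RCC1L, a protein that binds the large-subunit RNA, had one of 0.53 (adjusted p = 0.010), and METTL17, which acts on the small subunit, one of 0.46 (adjusted p = 0.049). MALSU1 lost the call without WT1 or WT2, RCC1L without WT3, and METTL17 without DKO1, DKO2, WT1, WT2 or WT3, with the adjusted p between 0.050 and 0.16 in these fits. METTL17 also lost it in edgeR with RLE or upper-quartile normalization. Of 5 mitoribosome proteins with other symbols, CHCHD1 was lower (44.3 ± 12.6 FPKM in DKO and 64.8 ± 0.713 FPKM in WT, log2 fold change -0.50, adjusted p = 0.042 by edgeR), which did not hold without DKO1, DKO2, WT1, WT2 or WT3 (adjusted p between 0.051 and 0.12). The call of CHCHD1 was also lost without a filter on low counts (adjusted p = 0.058 by edgeR) and with limma on log2(FPKM + 0.1), on log2(FPKM + 1) and on log2(FPKM + 1) with a minimum mean FPKM of 1 (adjusted p between 0.068 and 0.084). Without DKO3, 1 of these 5 proteins was higher and 3 were lower.

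Of 13 genes for expression and copying of mitochondrial DNA, ELAC2, which trims the 3′ ends of tRNA, was higher, and POLG and POLG2, the catalytic and accessory subunits of the mitochondrial DNA polymerase, were lower. Without DKO3, 3 genes of this list were higher and 6 lower. ELAC2 had 65.2 ± 10.1 FPKM in DKO and 47.7 ± 0.429 FPKM in WT, POLG had 19.0 ± 3.28 FPKM in DKO and 27.1 ± 0.617 FPKM in WT, and POLG2 had 5.56 ± 0.845 FPKM in DKO and 7.70 ± 0.390 FPKM in WT (SD, n = 3 each). The adjusted p in edgeR was 0.029, 0.049 and 0.033, and each call was lost without WT1, WT2 or WT3, with POLG also lost without DKO1 or DKO2 and POLG2 without DKO2 (adjusted p between 0.058 and 0.13). Of 9 regulators of mitochondrial biogenesis tested, PPARGC1B, a transcriptional coactivator, was lower with 2.99 ± 0.277 FPKM in DKO and 5.00 ± 0.251 FPKM in WT (log2 fold change -0.72, SE 0.12, adjusted p = 0.0023 by edgeR). GABPB2, a subunit of the factor GABP, was higher with 1.64 ± 0.347 FPKM in DKO and 0.803 ± 0.0635 FPKM in WT (log2 fold change 0.93, SE 0.20, adjusted p = 0.0087 by edgeR). Its level was low in both groups. Without DKO3, 1 of the 9 regulators was higher and 4 were lower.

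Set beside other protein complexes made from nuclear genes, 23 of 69 cytosolic ribosomal protein genes were higher and 1 lower in DKO, and of 65 genes for subunits of oxidative phosphorylation complexes 10 were higher and 10 lower. The shares were 33.3% higher and 1.45% lower for the cytosolic ribosomal protein genes and 15.4% each way for the oxidative phosphorylation genes, beside 23.3% higher and 22.2% lower over all genes tested. Without DKO3 these counts were 33 higher and 21 lower for the cytosolic ribosomal protein genes and 15 higher and 40 lower for the oxidative phosphorylation genes, beside 36.0% higher and 38.6% lower over all genes tested in that fit. The median gap of DKO3 to DKO1 and DKO2 on the log2 scale was 0.08 for the 74 mitochondrial ribosomal protein genes, 0.15 for the cytosolic ribosomal protein genes and 0.24 for the oxidative phosphorylation genes. These differences between lists were not tested.

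**Figure D5:**
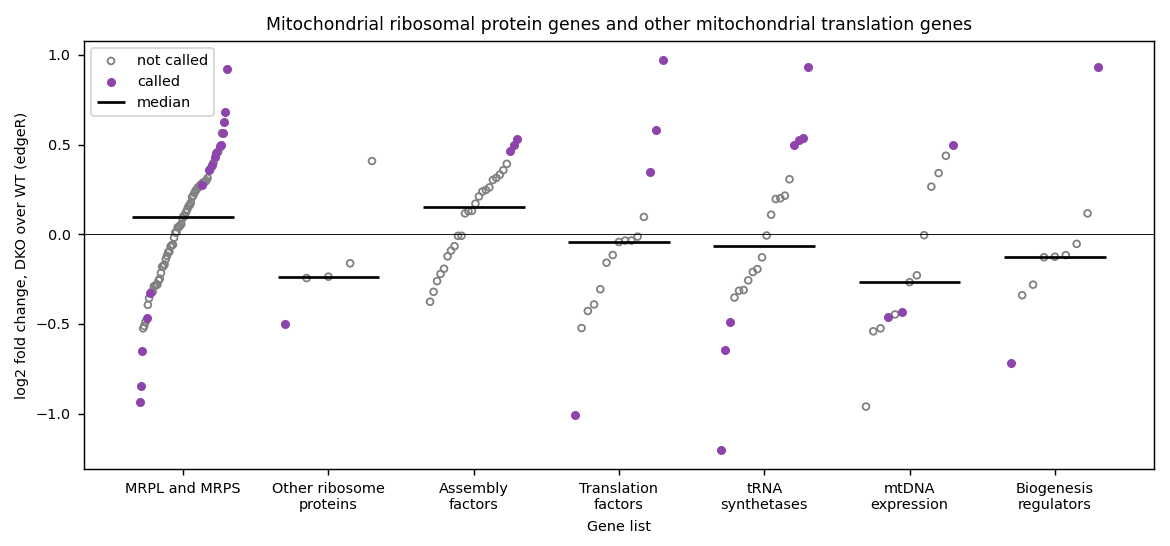
The log2 fold change of DKO over WT from edgeR for each mitochondrial ribosomal protein gene and each gene of the 6 other lists, sorted within a list, with filled points for called genes and a bar for the list's median. The medians run from 0.15 for the assembly factors, beside 0.10 for the mitochondrial ribosomal protein genes, to -0.27 for the genes that express and copy mitochondrial DNA. Without DKO3, which is not plotted apart, these 3 medians were -0.01, -0.01 and -0.07. IARS2 at -1.20 and MRRF at 0.97 are the extremes with all 6 libraries.

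The genes next to the mitochondrial ribosomal protein genes in the genome were looked at as well. In RefSeq's gene table for mChlSab1.0.hap1, used only for which genes neighbour each other, 73 of the 74 could be placed and 112 pairs of such a gene and an adjacent protein-coding gene had both genes tested. In 37 of these pairs (33.0%) the neighbour was called, against 45.5% of all genes tested. Both genes were called in 10 pairs, and in 9 of those they moved in the same direction. With 45.5% of all genes tested called, some such pairs occur in any set of neighbours. Whether 10 is more than that was not tested. Over all 112 pairs, the log2 fold changes of the 2 genes had a Pearson's r of 0.23 and a Spearman's rho of 0.28. Adjacent genes elsewhere in the genome were not compared. NIPSNAP2, next to MRPS17, was lower with 21.3 ± 6.62 FPKM in DKO and 78.1 ± 1.14 FPKM in WT (log2 fold change -1.84, SE 0.21, adjusted p = 0.00047 by edgeR), and RBKS, next to MRPL33, was lower with a log2 fold change of -1.34 (SE 0.16, adjusted p = 0.00056). COA4, next to MRPL48, was higher with 81.6 ± 12 FPKM in DKO and 40.3 ± 1.74 FPKM in WT (log2 fold change 1.10, SE 0.18, adjusted p = 0.0026 by edgeR). IGF2, next to MRPL23, had 3.31, 3.74 and 4.81 FPKM in DKO against 0, 0.05 and 0.05 FPKM in WT. The other pairs called in the same direction were MRPS17 with ZNF713, MRPL33 with SLC4A1AP, MRPL22 with GEMIN5, MRPL36 with NDUFS6 and MRPL20 with ANKRD65. In the remaining pair MAP1B was lower beside MRPS27, which was higher. The calls of ZNF713 and MAP1B were lost without WT1 or WT3, that of SLC4A1AP without WT1 and that of NDUFS6 without WT1, WT2 or WT3. These neighbours were picked out after their values were seen. The spans of 13 of the 74 genes overlap an adjacent protein-coding gene in that annotation, and the sources used here do not say whether reads were counted by strand. Among the called genes this applied to MRPL9 and MRPS6, whose overlapping neighbours were below 1 FPKM. MRPS11 and MRPL46 are the only pair of the 74 next to each other, and neither passed the test, with 130 ± 22.8 FPKM in DKO and 134 ± 5.14 FPKM in WT for MRPS11 and 57.4 ± 3.71 FPKM in DKO and 59.5 ± 1.77 FPKM in WT for MRPL46.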

How the data were processed

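RNA-seq of 3 DKO and 3 WT samples of COS7 cells was analysed from 1 deposited table. Per the file headers it gives, for each gene and sample, an estimated count of reads and an FPKM value made by the authors, along with TPM columns that were not used. Alignment tools listed in the submitters' processing notes are HISAT and Bowtie2. Their versions, the program that counted reads and the build were not given in the sources used here. A further 9 columns belong to 3 samples not analysed here. The FPKM values are scaled to gene length and library total, so a few abundant genes can move the share of all others, and counts of overlapping genes may share reads.

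Counts were rounded to whole numbers, filtered with filterByExpr (minimum count 10), normalised by TMM and tested over all genes with the quasi-likelihood test of edgeR 4.0.16 (R 4.3.3), DKO against WT, with Benjamini-Hochberg adjustment and a threshold of 0.05. Standard errors were taken as the absolute log2 fold change over the square root of F. Transcript length was computed from the count, FPKM and library total. The alternatives were other normalizations and filters, DESeq2 1.42.0, limma 3.58.1 on FPKM and after voom, a threshold of 0.01, a replicate block, and fits without each library in turn. The tests were checked on simulated data. There edgeR recovered 16% of 1.5-fold, 58% of 2-fold and 98% of 4-fold changes, and 6.9% of its calls were false (11.1% for DESeq2). The simulation changed 100 genes by 1.5-fold and 50 each by 2-fold and 4-fold, of 13094, with the same noise in both groups. In the data 5959 genes were called and DKO3 stood apart, so these rates do not give the sensitivity for the 74 genes. None of the 74 genes reached a 2-fold change, and a gene that was not called may still have changed. Plots used matplotlib 3.10.9 under Python 3.11.15.

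Named genes were up to 10 called higher and 10 called lower by adjusted p, the 3 with the highest and the 3 with the lowest mean FPKM, the 6 with the largest gap of DKO3, the paralogs of MRPS18, 4 per direction that were called only without DKO3, and up to 4 called genes of each other list. One gene that this rule names is not reported here. MRPL37, MRPL52, GATC and the genomic neighbours were added after their values were seen. The genes and lists were chosen with earlier results of these data known. Classes by subunit and bacterial counterpart follow the structure of the human mitochondrial ribosome, and MRPL35, MRPL38, MRPL45 and MRPL53 were not analysed here. Sequences of promoters and proteins were not used here.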

Additional observations from a re-analysis of the deposited data

How the results depend on the processing

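The table's depth of 14197344 to 15693049 counts a library gave each of the 74 genes at least 122 counts, so counting error was small beside the spread that DKO3 added, and 3 samples a group limit the precision. Over all genes, 5959 were called, 3902 at an adjusted p below 0.01, and from 4266 to 9880 when 1 library was left out. Of the 74, the 11 called higher became 4 at 0.01 and from 3 to 25 when 1 library was left out, and the 5 called lower became 2 at 0.01, 8 with limma on log2(FPKM + 0.1) or on log2(FPKM + 1) with or without a minimum mean FPKM of 1, and from 2 to 22 when 1 library was left out. The largest counts were those without DKO3. The cause of these shifts was not tested.

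The median log2 fold change of the 74 genes, 0.0956, was 0.0708 with DESeq2, 0.0713 with RLE normalization, 0.0522 with library totals only, 0.0510 with totals that leave out the 100 most abundant genes, 0.0598 with limma-voom, 0.0486 without a filter on low counts, -0.0022 with limma on log2(FPKM + 0.1) and -0.0013 with limma on log2(FPKM + 1), with or without the minimum mean. Leaving out 1 library gave from -0.0086 to 0.118. The mean share of summed FPKM, 1.02% in DKO and 1.06% in WT, was 1.52% in DKO and 1.53% in WT without the 100 most abundant genes.

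The deviations of same-numbered samples from their group means correlated at 0.02, -0.28 and -0.29. These values cannot show whether the replicate numbers pair the samples, because DKO3 dominates the deviations of the DKO group. With WT2, for example, the correlation was -0.26 for DKO1, -0.28 for DKO2 and 0.31 for DKO3. With the replicate number as a block, 2 genes were called higher and 2 lower (MRPL20, MRPL36, MRPS17 and MRPS30), the median was 0.0601, and 4485 genes of all tested were called.

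The log2 fold change of MRPL42, 0.04 and not called, turned to -0.19 with limma on log2(FPKM + 0.1), -0.18 with limma on log2(FPKM + 1) with or without the minimum mean, -0.16 with limma-voom, -0.13 with the replicate block, -0.18 without DKO1, -0.23 without DKO2 and -0.01 without WT2, and leaving out 1 library gave from -0.23 to 0.41 (without DKO3). That of MRPL47 ran from -0.26 without DKO1 to 0.15 without DKO3. Over the alternatives, the genes named by the rule, MRPL37 and the genomic neighbours gave this tally: 935 values kept direction and side of the threshold, 163 lost a call, 26 gained one and 9 turned round. MRPL52, MRPS11 and MRPS16 were not in the tally. Their log2 fold changes were 0.09, 0.04 and 0.17 with all libraries and -0.39, -0.20 and -0.21 without DKO3.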
